A study of Homo sapiens with 6 samples.

Results

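The B cell receptor (BCR) signalling and surface genes were a set of 40 genes, all with a row of their own among the 21921 genes that the deposited table covers by a single symbol. They were taken by gene symbol from a fixed list of B cell surface antigens, BCR kinases, adaptors and the FCRL family, and each was measured by 1 row. The cells were INA-6, a multiple myeloma (MM) cell line grown with IL-6, whose source the labels give as mature plasma cells. In 3 cultures the cells received UNC1999, an inhibitor of the histone methyltransferase EZH2, and in 3 others they received UNC2400, its inactive form. All 6 cultures were seeded at 100000 cells per mL, received 1 μM of compound for 120 hours with medium and compound renewed at 72 hours, and were hybridised to 1 Affymetrix array each. INA-6 is a single line, so that the arrays say nothing of other myeloma cells, and although the arrays are labelled as biological replicates, how the cultures were separated is not stated. The p-values therefore measure the spread between these samples.

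In B cells, CD79A and CD79B carry the signal of the antigen receptor into the cell. Kinases of the SRC family such as LYN, together with SYK and BTK, pass it on through the adaptor BLNK to the phospholipase PLCG2 and to PI3-kinase, while CD22, FCGR2B and the phosphatases PTPN6 and INPP5D restrain it. Cells that become plasma cells lower much of this machinery along with surface antigens such as MS4A1, which encodes CD20. EZH2 places the repressive H3K27me3 mark, and the comparison asks which of these genes changed when its activity was inhibited.

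The labelled cell type was checked against marker genes first. The 9 plasma cell markers averaged between 7.17 and 7.39 on the UNC1999 arrays and between 8.21 and 8.31 on the UNC2400 arrays (log2 values), and the mean of each over the 6 arrays lay above the median of all genes, 5.50, although CD38 averaged 6.20 with UNC1999 and 4.85 with UNC2400. Of the 9, 8 were lower with UNC1999 and CD38 was higher. The 7 measured B cell markers, which include the members CD79A and MS4A1, averaged between 5.12 and 5.16 on the UNC1999 arrays and between 5.15 and 5.18 on the UNC2400 arrays, with 6 of the 7 at or below the gene median, among them PAX5, EBF1 and MS4A1, while SPIB was higher and BCL6 lower. The calls of CD38 and SPIB were lost without UNC2400 replicate 1 (adjusted p = 0.0861 and 0.124), and that of BCL6 without UNC1999 replicate 2 (adjusted p = 0.145). Of the T cell markers, CD3E was 0.30 higher on the log2 scale (adjusted p = 0.00804) with a mean of 5.38 with UNC1999 and 5.07 with UNC2400, and the other 5 did not pass. None of the 6 monocyte and macrophage markers passed, and all lay at or below the gene median. Monocyte markers averaged between 4.71 and 4.74 with UNC1999 and between 4.70 and 4.73 with UNC2400. The part of these markers in the results below was not tested. Arrays of a whole culture cannot tell fewer cells of a type from less RNA per cell. Of all transcript clusters, 3273 were higher and 2881 lower at an adjusted p below 0.05, the threshold used throughout, and the median of each array lay between 4.83 and 4.86. EZH2 itself was at 7.95, 8.03 and 8.14 with UNC1999 and at 7.87, 7.89 and 7.79 with UNC2400 (adjusted p = 0.0990).

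Of the 40 genes, 14 were higher with UNC1999, 3 were lower and 23 did not pass. The genes that rose were CD79B, CD81, CD37, CD24, FCGR2B, FCRL4, LYN, FYN, SYK, PRKCB, PLCG2, PIK3CD, PIK3AP1 and MYBL1, and those that fell were PTPN6, LAX1 and BLNK. The 14 make up 35% of the set, where 9.16% of all genes were called higher. The 3 make up 7.5%, a share near the 7.32% of all genes called lower. The median log2 difference was 0.05 over the 40 genes and 0.01 over all genes.

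All 3 UNC1999 arrays lay above all 3 UNC2400 arrays for 20 of the 40 genes, against 24.1% of all genes, and below them for 6, against 13.7%. For all 17 called members the groups did not overlap, and 9 of the 23 others did not overlap either. The changes were modest. An unadjusted p of at most 0.02 with a fold of at least 1.5, the thresholds of the study, left CD37, PRKCB and PIK3AP1 as higher (0.908% of all genes) and LAX1 as lower (1.47% of all genes). Calls were more frequent among brighter members: 11 of the 22 members above the median of all genes were higher and 3 lower, where 14.3% and 13% of all genes above that median were. Of the 18 members at or below it, 3 were higher (CD24, FCGR2B and FCRL4) and none was lower, where 3.98% and 1.68% of such genes were. Log2 values near the background compress a fold, so that differences of the dim members can be understated.

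**Figure D1:**
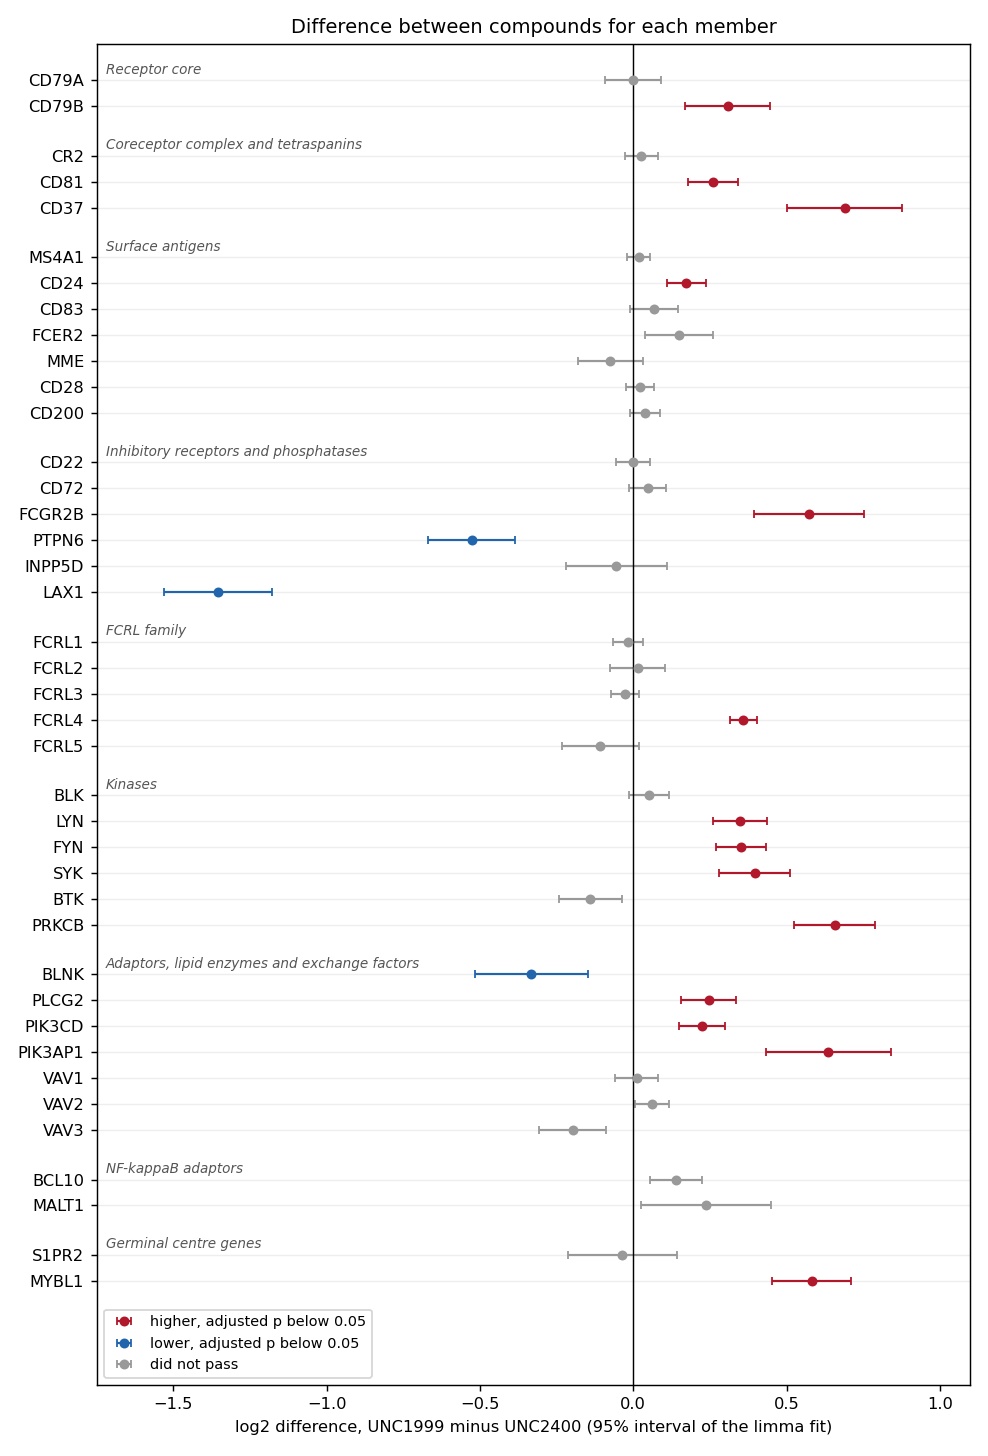
Log2 difference, UNC1999 minus UNC2400 (horizontal axis), with the 95% interval of the limma fit for each of the 40 genes, ordered by role. Red marks the 14 members called higher, blue the 3 called lower and grey the 23 that did not pass; LAX1 at -1.36 lies farthest from 0, and the largest rise is that of CD37 at 0.69.

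**Figure D2:**
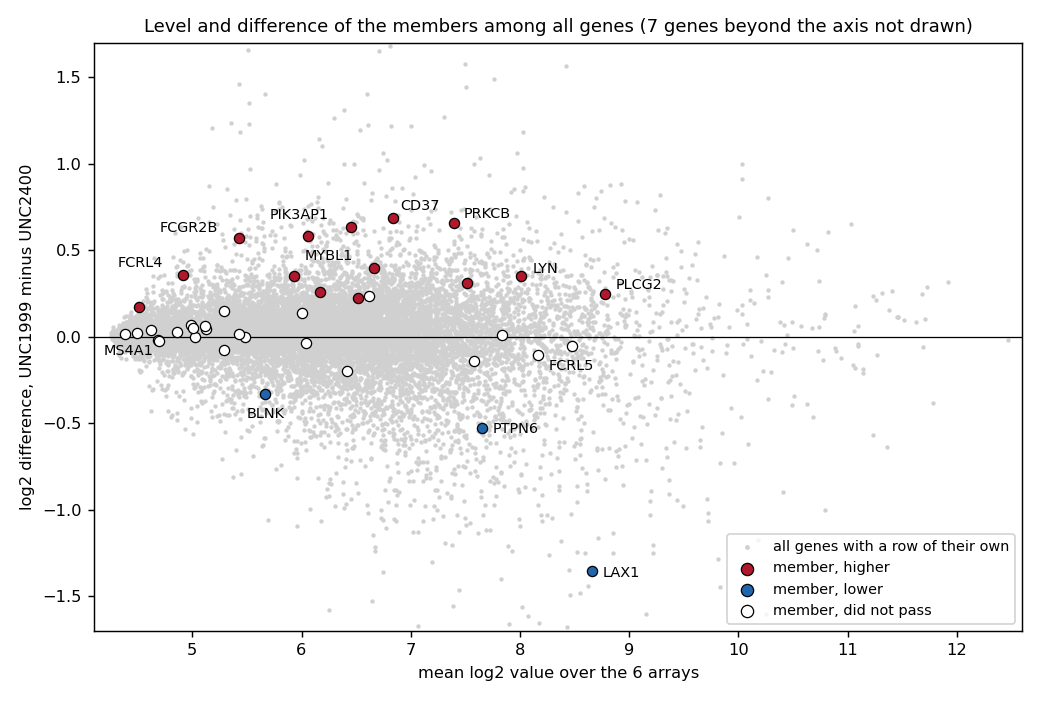
Mean log2 value over the 6 arrays (horizontal axis) against the log2 difference, UNC1999 minus UNC2400 (vertical axis), for the members over all genes in grey. The members called higher lie between 0.17 and 0.69 and spread over most of the range of levels, while open circles gather near 0 at the dim end, and 7 genes of the table fall outside the vertical axis.

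The promoters of 4 members are shown because these genes had large changes or the smallest error and differ in CG dinucleotides, where Polycomb complexes are known to gather in mammals. The windows run from 250 bases before to 50 bases after the start of a RefSeq transcript, are written 5′ to 3′ on the strand of the gene in assembly GRCh38.p14, and have each CG in capitals. PRKCB (chr16:23835733-23836032, plus strand) and PIK3AP1 (chr10:96720465-96720764, minus strand) rose, FCRL4 (chr1:157598036-157598335, minus strand) rose with the smallest error of the called members, and LAX1 (chr1:203764933-203765232, plus strand) fell most.
PRKCB: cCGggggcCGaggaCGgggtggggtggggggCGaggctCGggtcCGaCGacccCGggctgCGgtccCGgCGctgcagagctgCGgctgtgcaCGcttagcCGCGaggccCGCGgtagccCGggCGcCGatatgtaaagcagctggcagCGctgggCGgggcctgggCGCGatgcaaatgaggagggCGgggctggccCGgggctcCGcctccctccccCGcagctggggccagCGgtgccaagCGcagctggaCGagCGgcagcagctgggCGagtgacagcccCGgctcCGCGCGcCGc
PIK3AP1: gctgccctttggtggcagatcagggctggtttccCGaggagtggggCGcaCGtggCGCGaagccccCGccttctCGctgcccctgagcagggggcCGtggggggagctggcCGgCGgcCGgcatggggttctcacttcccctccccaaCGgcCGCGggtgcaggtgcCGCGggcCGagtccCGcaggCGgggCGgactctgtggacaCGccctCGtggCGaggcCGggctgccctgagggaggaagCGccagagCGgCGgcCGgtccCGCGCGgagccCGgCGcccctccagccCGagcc
FCRL4: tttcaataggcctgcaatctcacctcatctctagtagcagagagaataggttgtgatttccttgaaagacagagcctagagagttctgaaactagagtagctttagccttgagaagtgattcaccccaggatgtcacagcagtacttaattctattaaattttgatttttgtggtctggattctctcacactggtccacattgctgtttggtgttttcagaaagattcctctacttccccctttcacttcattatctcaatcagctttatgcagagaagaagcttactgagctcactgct
LAX1: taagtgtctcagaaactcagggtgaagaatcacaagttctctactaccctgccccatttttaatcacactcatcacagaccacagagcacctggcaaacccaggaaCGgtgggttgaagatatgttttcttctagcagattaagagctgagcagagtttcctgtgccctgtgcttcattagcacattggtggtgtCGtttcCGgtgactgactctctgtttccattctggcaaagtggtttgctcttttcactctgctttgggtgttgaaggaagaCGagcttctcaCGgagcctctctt

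The PRKCB window held 38 CG dinucleotides, that of PIK3AP1 held 34, that of LAX1 held 5 and that of FCRL4 held 0. RefSeq windows were found for 33 of the 40 genes, and CD79B, CD81, CD37, MS4A1, BLK, LYN and MYBL1 had no entry. Taking the window richest in CG for each gene, the 9 members called higher with an entry held between 0 and 55 (median 36), the 3 called lower between 1 and 12 (median 5) and the 21 others between 1 and 53 (median 12). The median over the 27305 genes of the table was 16. These counts describe the windows and were not tested, and the members that rose included both extremes, FCRL4 with 0 and FYN with 55.

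Motifs were searched on both strands of every window of a gene. The octamer ATGCAAAT, bound by OCT factors of B cells, was found in 1 of the 33 genes, against 2.19% of the genes of the table, and that gene was PRKCB, with the match beginning 80 bases before the start. The letters GAGGAAGT, a core bound by the myeloid and B cell factor PU.1, were found in 6 of the 33 (18.2%, against 3.15% of the genes of the table), namely PTPN6, SYK, BTK, INPP5D, VAV1 and FCRL1. The ETS-IRF composite GGAANNGAA was found in 9 of the 33 (27.3%, against 9.45%), in 2 of the 9 members called higher and in 6 of the 21 that did not pass. CCCNNGGG, a core of EBF sites, was found in 10 (30.3%, against 21.9%), the E-box CACGTG in 3 (9.09%, against 8.77%), PIK3AP1 among them, and the NF-kappaB letters GGGNNTTCC in 3 (9.09%, against 7.95%). The ETS-IRF letters can overlap those of PU.1. A match is a description of the letters in the window, and the set was chosen as B cell genes.

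The receptor core was represented by CD79A and CD79B, which form the signalling pair of the BCR. CD79B was at 7.78, 7.61 and 7.6 on the UNC1999 arrays and at 7.34, 7.32 and 7.41 on the UNC2400 arrays. All UNC1999 values lay above all UNC2400 values, a difference of 0.31 ± 0.06 (SE) on the log2 scale or 1.24-fold (adjusted p = 0.0261). This call did not hold without UNC1999 replicate 2 (adjusted p = 0.0677) or without UNC2400 replicate 1, 2 or 3 (adjusted p = 0.0928, 0.0772 and 0.0548). CD79A was at 5.52, 5.49 and 5.45 with UNC1999 and at 5.44, 5.45 and 5.56 with UNC2400. Its groups overlapped (95% interval of the difference -0.09 to 0.09, adjusted p = 0.998), and the difference between the partners was not tested.

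The tetraspanins CD37 and CD81 rose, whereas CR2, the complement receptor that joins CD81 in the coreceptor complex, did not pass. CD37, a tetraspanin of mature B cells, was at 7.23, 7.16 and 7.17 with UNC1999, against 6.50, 6.35 and 6.65 with UNC2400. The UNC1999 values lay close together and above all others, and the difference of 0.69 ± 0.08 (SE) or 1.61-fold was the largest rise of the set (adjusted p = 0.00543). CD81 was at 6.31, 6.34 and 6.26 with UNC1999 and at 5.99, 6.06 and 6.08 with UNC2400. Again the groups did not overlap, with a 1.2-fold difference (0.26 ± 0.03 SE, adjusted p = 0.00872). CR2 was at 4.86, 4.87 and 4.89 with UNC1999 and at 4.87, 4.81 and 4.86 with UNC2400 (adjusted p = 0.597), close to the low end of the array.

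**Figure D3:**
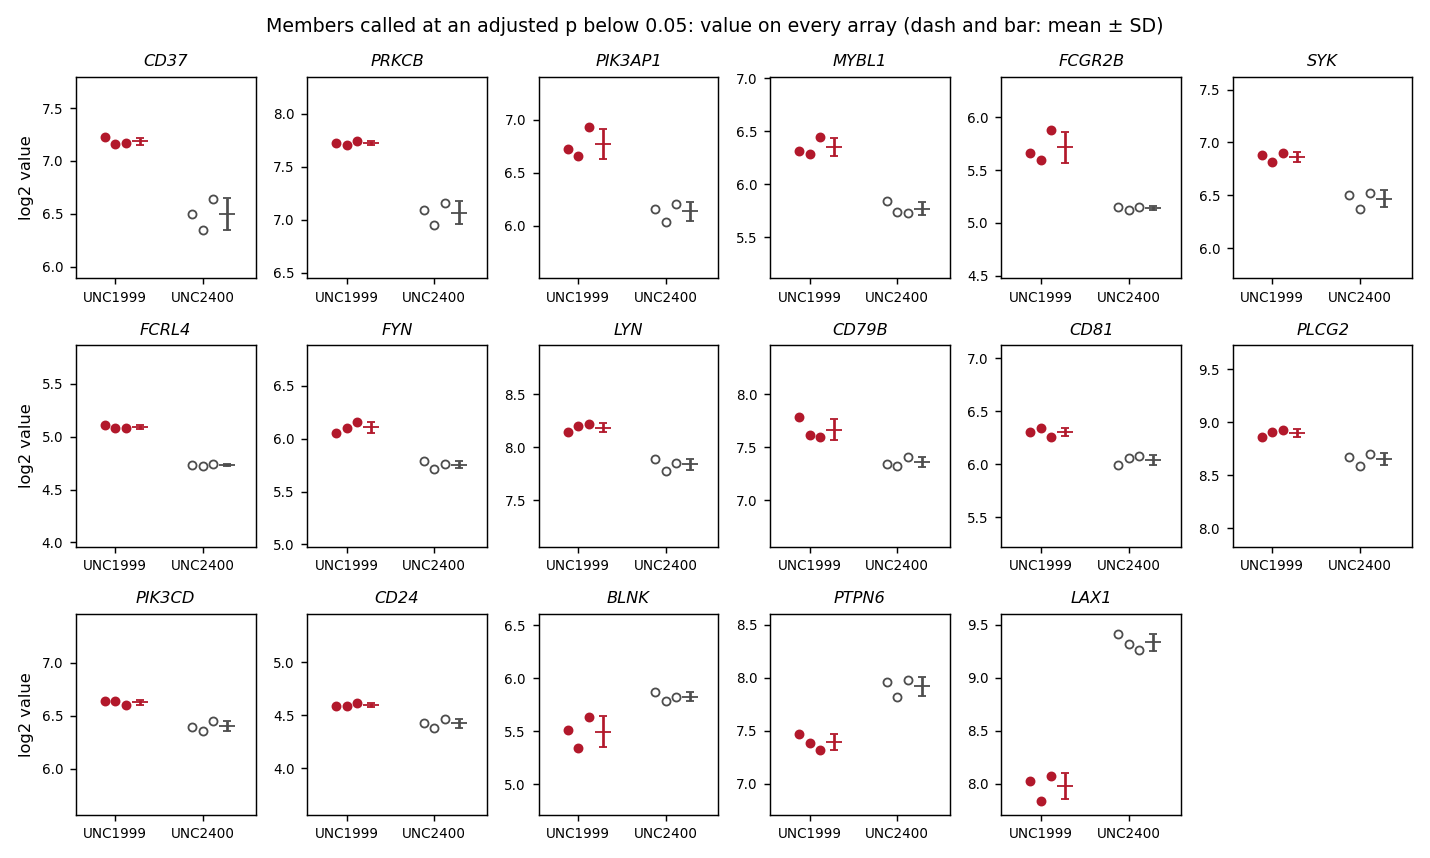
Log2 values (vertical axis, the same span of 1.9 in each panel) of the 17 called members on every array, with UNC1999 as filled and UNC2400 as open circles, and the mean ± SD beside them. In every panel all 3 arrays of a compound lie on one side of those of the other; the panels run from CD37, the largest rise, to LAX1, the largest fall.

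Surface antigens were dim on every array, and 1 of the 7 passed. CD24, a small anchored glycoprotein of early B cells, was at 4.59, 4.58 and 4.62 with UNC1999 and at 4.43, 4.38 and 4.46 with UNC2400. The groups stood apart, yet the difference was 0.17 ± 0.03 (SE) or 1.13-fold (adjusted p = 0.0130), and the call did not hold without UNC1999 replicate 2 (adjusted p = 0.0526) or UNC2400 replicate 1 (adjusted p = 0.0507). The identifier of this row carries Y in the place of a chromosome number, whereas RefSeq places CD24 on chromosome 6, so that the copy it measures is not settled. MS4A1, the target of anti-CD20 antibodies, was at 4.40, 4.38 and 4.39 with UNC1999 and at 4.37, 4.37 and 4.38 with UNC2400. Its values lay near the bottom of the array range on all 6 arrays (adjusted p = 0.614). FCER2, the low-affinity IgE receptor CD23, was at 5.4, 5.29 and 5.39 with UNC1999 against 5.14, 5.27 and 5.22 with UNC2400, which did not overlap but did not pass (adjusted p = 0.114). CD83, MME (CD10), CD28 and CD200 had differences between -0.08 and 0.07, and none passed (adjusted p between 0.306 and 0.611).

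The inhibitory receptors and phosphatases moved in both directions. LAX1, an adaptor of lymphocyte membranes that limits antigen receptor signalling in mice, was at 8.03, 7.84 and 8.07 on the UNC1999 arrays and at 9.42, 9.32 and 9.26 on the UNC2400 arrays. The gap between the groups was over a log2 unit, and the difference of -1.36 ± 0.07 (SE), or 2.56-fold lower, was the largest of the set in either direction (adjusted p = 0.00101). PTPN6, which encodes the phosphatase SHP-1 that acts behind CD22, was at 7.47, 7.39 and 7.32 with UNC1999 and at 7.96, 7.82 and 7.98 with UNC2400. It was 1.44-fold lower (-0.53 ± 0.06 SE, adjusted p = 0.00532), with no overlap.

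FCGR2B, the inhibitory Fc receptor of B cells, went the other way. It was at 5.66, 5.60 and 5.88 with UNC1999 and at 5.15, 5.12 and 5.15 with UNC2400, a rise of 1.49-fold (0.57 ± 0.07 SE, adjusted p = 0.00872). UNC1999 replicate 3 was the highest array, and the other UNC1999 arrays also lay above every UNC2400 array. FCGR2B has close copies in the same receptor family, and whether this row also takes up their signal was not tested. INPP5D, the lipid phosphatase SHIP-1, was at 8.48, 8.42 and 8.46 with UNC1999 and at 8.54, 8.36 and 8.61 with UNC2400, and the interval of the difference was -0.22 to 0.11. CD22 and CD72, inhibitory lectin-like receptors, had differences of -0.00 and 0.05 (adjusted p = 0.999 and 0.356).

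The FCRL genes encode Fc receptor-like proteins of B cells and lie beside each other on chromosome 1, in the order FCRL5, FCRL4, FCRL3, FCRL2 and FCRL1. FCRL4, which marks a memory B cell subset in tissues, was the only one of the 5 that passed. It was at 5.11, 5.08 and 5.08 on the UNC1999 arrays and at 4.73, 4.72 and 4.74 on the UNC2400 arrays. Replicates differed by a few hundredths while the groups stood 0.36 ± 0.02 (SE) apart, a 1.28-fold rise with the smallest adjusted p of the set (0.000887). Both group means, 5.09 with UNC1999 and 4.73 with UNC2400, lay below the median of all genes, 5.50. The small adjusted p thus rests on a narrow spread at a low level. FCRL5, carried on the surface of plasma and myeloma cells, was at 8.06, 8.12 and 8.15 with UNC1999 and at 8.27, 8.11 and 8.27 with UNC2400. These groups overlapped (difference -0.11, interval -0.23 to 0.02, adjusted p = 0.302). FCRL1, FCRL2 and FCRL3 had differences of -0.02, 0.01 and -0.03 and adjusted p between 0.504 and 0.894, and whether FCRL4 differs from its neighbours was not tested.

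Among the 6 kinases 4 were called higher and none lower, where 9.16% and 7.32% of all genes were. For BTK, given below, all UNC1999 arrays lay under the UNC2400 arrays without passing. PRKCB, the protein kinase C isoform that links the BCR to NF-kappaB, was at 7.73, 7.70 and 7.75 with UNC1999 and at 7.09, 6.95 and 7.16 with UNC2400. The UNC1999 arrays were within a narrow band above all others, and the difference of 0.66 ± 0.05 (SE) or 1.58-fold was second in size only to that of CD37 among the rises (adjusted p = 0.00246). Its window above carried the only octamer found among the 33 genes searched, a share of 3.03% against 2.19% of the genes of the table. Whether the octamer has a part in the rise was not tested.

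SYK, the kinase that docks on phosphorylated CD79A and CD79B, was at 6.88, 6.81 and 6.90 with UNC1999, against 6.51, 6.38 and 6.52 with UNC2400 (1.32-fold, adjusted p = 0.00700). LYN, the main SRC family kinase of B cells, was at 8.14, 8.20 and 8.22 with UNC1999, against 7.89, 7.78 and 7.85 with UNC2400 (1.27-fold, adjusted p = 0.00441). FYN, a related kinase best known from T cells, was at 6.06, 6.10 and 6.16 with UNC1999, against 5.79, 5.72 and 5.76 with UNC2400 (1.28-fold, adjusted p = 0.00361). None of these 3 kinases had overlapping groups, and their calls held without any 1 array. BLK, another SRC family kinase, had a difference of 0.05 near the low end of the array (adjusted p = 0.346).

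BTK, the kinase blocked by ibrutinib, was at 7.45, 7.48 and 7.6 with UNC1999 and at 7.65, 7.62 and 7.68 with UNC2400. The UNC1999 arrays lay below the others, but the difference of -0.14 did not pass (interval -0.24 to -0.04, adjusted p = 0.114). Without UNC1999 replicate 3 it was -0.18 and passed (adjusted p = 0.0165).

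The adaptors, lipid enzymes and exchange factors were mixed. PIK3AP1 (BCAP), the adaptor that brings PI3-kinase to the BCR, was at 6.73, 6.65 and 6.93 with UNC1999 and at 6.16, 6.03 and 6.21 with UNC2400. It rose 1.56-fold (0.64 ± 0.08 SE, adjusted p = 0.00921), and UNC1999 replicate 3 was the highest array. PIK3CD, the PI3-kinase catalytic subunit of leukocytes, was at 6.64, 6.64 and 6.6 with UNC1999, against 6.40, 6.35 and 6.45 with UNC2400 (1.17-fold, adjusted p = 0.0102). PLCG2, the phospholipase that BTK activates, was at 8.86, 8.91 and 8.93 with UNC1999, against 8.68, 8.59 and 8.70 with UNC2400 (1.19-fold, adjusted p = 0.0140). Both stood apart from their controls by small steps, and without UNC1999 replicate 2 neither passed (adjusted p = 0.0524 for PIK3CD and 0.0651 for PLCG2).

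BLNK, the scaffold between SYK and PLCG2, was at 5.51, 5.34 and 5.63 with UNC1999, against 5.87, 5.79 and 5.83 with UNC2400. It was 1.26-fold lower, with an adjusted p of 0.0498 at the edge of the threshold, and the call was lost without UNC1999 replicate 1 or 2 (adjusted p = 0.133 and 0.0608), without UNC2400 replicate 1, 2 or 3 (adjusted p = 0.152, 0.0992 and 0.132), and with other scalings of the arrays. VAV3, a guanine nucleotide exchange factor, was at 6.32, 6.27 and 6.37 with UNC1999, against 6.59, 6.45 and 6.51 with UNC2400, and lay just past the same edge (adjusted p = 0.0506). Without UNC2400 replicate 2 it passed (difference -0.23, adjusted p = 0.0457), as it did with quantile normalization or cyclic loess (adjusted p = 0.0257 and 0.0324). Its paralogues VAV1 and VAV2 had differences of 0.01 and 0.06 (adjusted p = 0.892 and 0.192).

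BCL10 and MALT1, which act together to carry the BCR signal to NF-kappaB, did not pass, although all UNC1999 arrays lay above all UNC2400 arrays for both. BCL10 was at 6.00, 6.11 and 6.11 with UNC1999 and at 5.91, 5.93 and 5.95 with UNC2400 (adjusted p = 0.0686, and 0.0214 without UNC1999 replicate 1). MALT1 was at 6.64, 6.64 and 6.94 with UNC1999 and at 6.54, 6.48 and 6.49 with UNC2400. UNC1999 replicate 3 stood apart from its group here, and the difference of 0.24 (adjusted p = 0.179) became 0.14 without that array and passed (adjusted p = 0.0451).

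The germinal centre genes MYBL1 and S1PR2 differed in their values. MYBL1, a MYB family transcription factor of germinal centre B cells, was at 6.32, 6.29 and 6.45 with UNC1999 and at 5.84, 5.74 and 5.73 with UNC2400. With no overlap it rose 1.497-fold (0.58 ± 0.05 SE, adjusted p = 0.00315), just short of the fold that the study required. S1PR2, the receptor that keeps B cells within the germinal centre, was at 6.10, 6.05 and 5.93 with UNC1999 and at 5.97, 6.02 and 6.19 with UNC2400. Its groups overlapped (interval of the difference -0.21 to 0.14, adjusted p = 0.861).

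**Figure D4:**
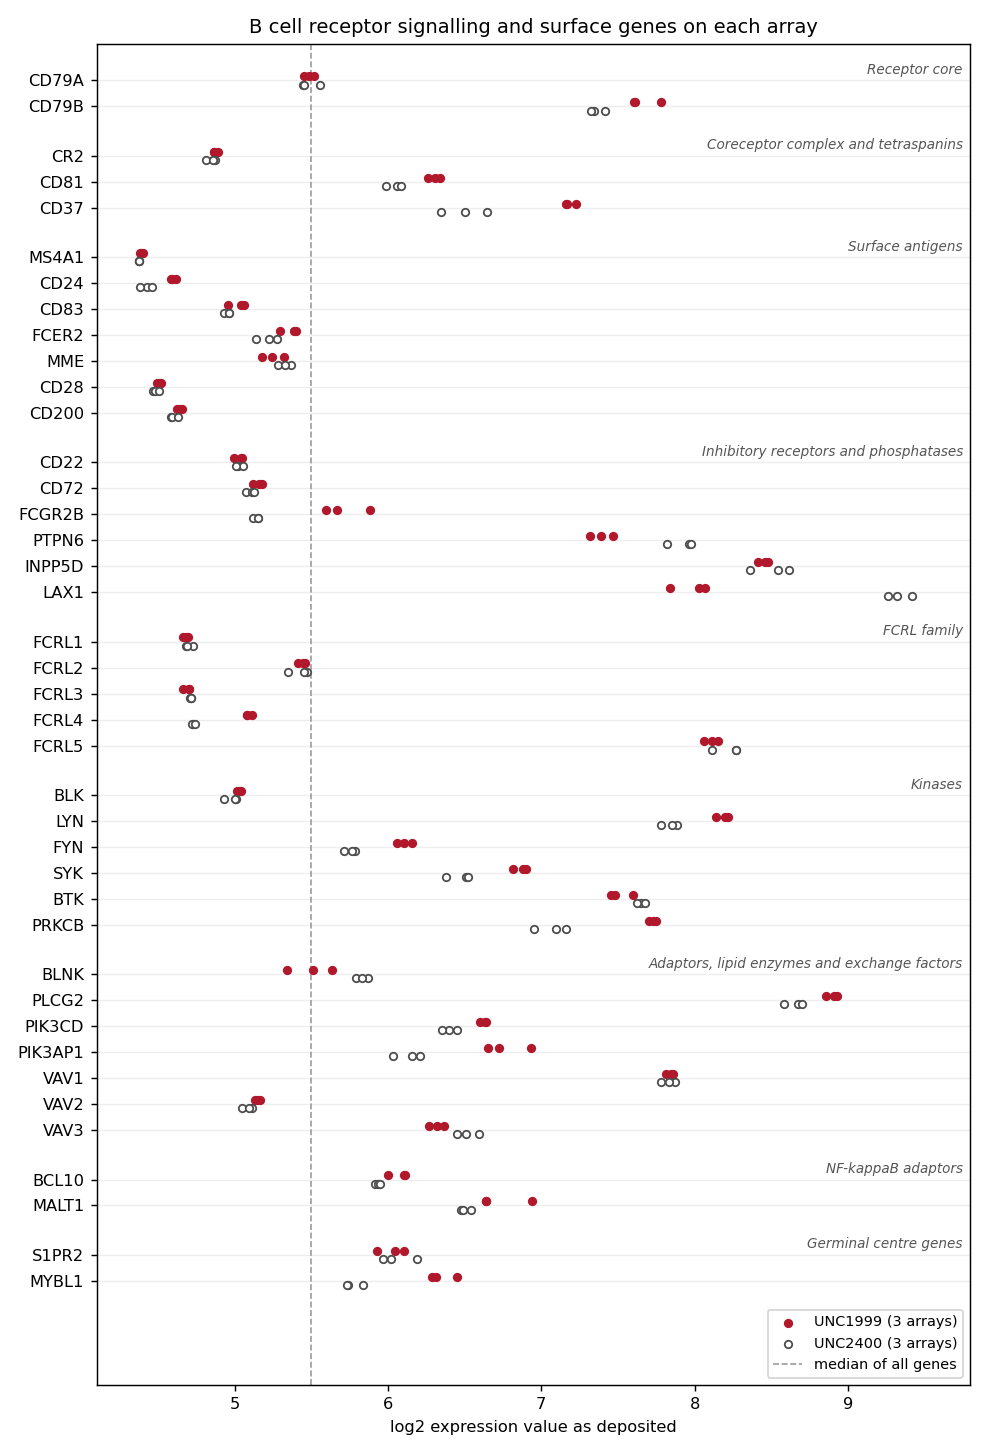
Log2 value as deposited (horizontal axis) of each of the 40 genes on the 3 UNC1999 arrays (filled, upper) and the 3 UNC2400 arrays (open, lower), grouped by role, with the median of all genes, 5.50, as a dashed line. The surface antigens sit left of that line on every array, and the differences between group means are largest for LAX1, CD37, PRKCB and PIK3AP1.

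The other genes of the BCR pathway were counted on a list of 82, of which 71 had a row of their own. The others were not analysed here. Of the 71, 14 were higher (19.7%) and 9 lower (12.7%), with a median of 0.03. These genes were bright, with a median level of 6.70, and of all genes above the gene median 14.3% were higher and 13% lower, so that the share called lower lay near that of genes of such levels. Among PI3K and AKT genes 4 of 10 were higher and 1 was lower, with PIK3R1, a regulatory subunit of PI3-kinase, 1.22-fold and AKT1 1.16-fold higher (adjusted p = 0.00189 and 0.00713). Of these 4 calls 2 remained without UNC2400 replicate 1, 2 or 3, and the call of the lower gene, PIK3CB, was lost without each array in turn except UNC1999 replicate 3. Of the 11 calcium and NFAT genes none was higher, and PPP3CC, a catalytic subunit of calcineurin, was 1.36-fold and ITPR2, a calcium channel of the endoplasmic reticulum, 1.39-fold lower (adjusted p = 0.000766 and 0.00991).

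Of the 18 kinases and adaptors outside the set, 3 were higher (16.7%) and 4 lower (22.2%). Over all genes these shares were 9.16% and 7.32%, and over genes above the gene median 14.3% and 13%, so that the share called higher lay near the latter. Of the 3 only DAPP1 remained without UNC1999 replicate 1 or 2 or UNC2400 replicate 1 or 3. DAPP1, a B cell adaptor that binds PI3-kinase products, was 1.27-fold higher (adjusted p = 0.00638). The adaptors GAB1, GRB2 and CD2AP were 1.43-fold, 1.32-fold and 1.25-fold lower, and RASGRP3, a RAS exchange factor of B cells, 1.22-fold lower (adjusted p between 0.00189 and 0.00854). Downstream, JUN rose 1.53-fold and FOS 1.41-fold among 4 of 10 RAS, RAC and MAPK genes that were higher, and the NF-kappaB subunit REL rose 1.33-fold (adjusted p = 0.00598, 0.0104 and 0.0107). Of these 4 RAS, RAC and MAPK calls 2 remained without UNC1999 replicate 1 or UNC2400 replicate 1 or 3, and only JUN remained without UNC1999 replicate 2, where FOS had an adjusted p of 0.0531. The count of 14 higher genes fell to 8 without UNC1999 replicate 1, to 6 without UNC1999 replicate 2, to 6 without UNC2400 replicate 1 and to 7 without UNC2400 replicate 3.

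**Figure D5:**
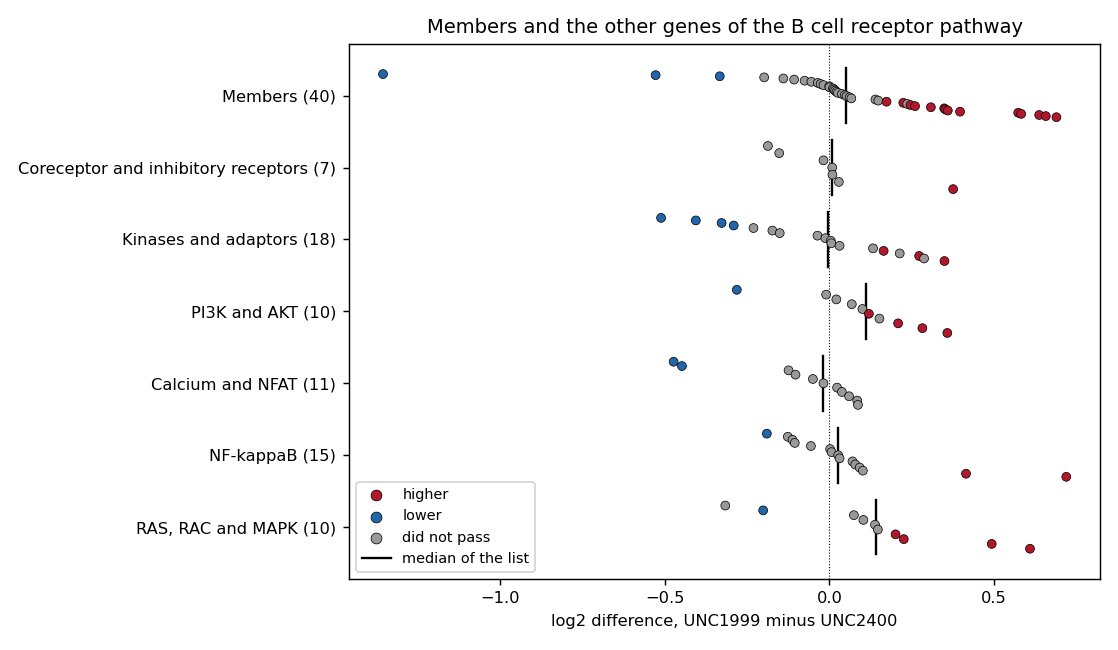
Log2 difference, UNC1999 minus UNC2400 (horizontal axis), of the 40 members and of the 71 other genes of the BCR pathway by step (vertical axis, number of genes in brackets), with each gene as a point and the median of each list as a bar. The medians lie between -0.02 and 0.14, and LAX1 among the members is the point farthest from 0.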

How the data were processed

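Total RNA of 6 INA-6 cultures, 3 with UNC1999 and 3 with UNC2400, was hybridised to Affymetrix arrays. The deposited values are log2 expression values, 1 per row and array, made by the authors, who analysed the arrays with the GeneSpring software. How rows were summarised, scaled and corrected for background, and which genome build applied, is not given in the sources used here. Although the text of the study names DMSO as the control, the labels name UNC2400, which the groups follow. The identifiers of the member rows have the form of junction identifiers, and whether such a row measures a whole gene or a part of it was not settled. The table held 65529 rows, taken here as transcript clusters. Of these, 23129 had exactly 1 gene symbol in the probe annotation, 1221 had several and 41179 had none. The RefSeq table of GRCh38.p14 held 20515 of these symbols as such and 2540 as synonyms, which were updated, and 74 stayed as given. A gene on several rows was represented by the row with the highest mean. The table held 0 columns of other samples.

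Differential expression was tested with limma 3.58.1 in R 4.3.3 (lmFit, eBayes) on all rows, with group as the only term, two-sided, Benjamini-Hochberg adjustment and a threshold of 0.05. Intervals are 95% intervals of this fit. The fit was tested on simulated arrays with noise drawn for each row on its own. Changes were added only to rows above the median level, so that recovery of changes in dimmer rows was not covered. Arrays give no read depth, and 3 per group limit the precision. The members and lists were chosen with earlier results of these data known. All 40 members are named; members past the threshold are given on every array, and up to 6 other pathway genes with the smallest adjusted p are named per direction, while other genes are named for their markers or their place in the pathway. Alternatives covered scaling, dim rows, the variance model, array weights, pairing, thresholds, row choice and each array left out. Promoter windows are from RefSeq.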

Additional observations from a re-analysis of the deposited data

How the results depend on the processing

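Under the 17 alternatives no called member changed direction, while FCRL2, VAV1, CD22, CD79A and S1PR2, with differences near 0, changed sign under some, and 12 of the 17 called members kept their call without any 1 array. Leaving out 1 array gave between 10 and 15 members higher and between 2 and 4 lower, between 6 and 14 other pathway genes higher and between 6 and 10 lower, a median of the members between 0.04 and 0.06, and between 1486 and 3657 clusters higher and between 1428 and 2856 lower over the table. The thresholds of the study left 3 members higher and 1 lower, 2 other pathway genes higher and 0 lower, and 453 clusters higher and 619 lower. Array weights raised the members called lower to 5, with BTK and VAV3 added. BLNK was lost under quantile normalization, median centring and cyclic loess (adjusted p = 0.0562, 0.0613 and 0.0590), and VAV3 passed as lower under quantile normalization, cyclic loess and a fit on brighter clusters alone (adjusted p = 0.0257, 0.0324 and 0.0310); the cause was not tested. The replicate block, which pairs arrays by number, took the clusters called higher to 2162 and the members to 12 higher and 2 lower, with CD79B, PIK3CD and BLNK lost (adjusted p = 0.0691, 0.0516 and 0.0610). The numbers were not taken as pairs, since the study states no pairing for the arrays. Over all rows, deviations of equally numbered arrays correlated by 0.06, 0.08 and -0.01. By these deviations 2 of 3 UNC1999 arrays were closest to their own number, which with so few arrays cannot decide whether they were paired. Among the members, replicate 2 had the lowest and replicate 3 the highest median deviation with both compounds. These were -0.01 and 0.02 with UNC1999 and -0.03 and 0.02 with UNC2400. Signal near the background limits the dim members. In the fit without dim clusters, a row was kept if the higher of its group means exceeded the median of all values. Of the 40 members 34 were tested, 13 higher and 4 lower. FCRL4 (5.09 with UNC1999, 4.73 with UNC2400) was kept only through its UNC1999 mean, so its call there is no separate check. CD24 was removed and not tested again.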
